A study of Mus musculus with 7 samples.

Results

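The immediate early and AP-1 genes are a list of 10 named genes, Fos, Fosb, Jun, Junb, Jund, Egr1, Ier2, Ier3, Klf6 and Myc, picked by name among the 23347 genes in the deposited tables. Each of the 10 was found under its symbol and passed the filter on low counts, by which 15179 genes were tested. RNA was sequenced from whole livers of 7 male mice on a C57BL/6 background, all fed for 15 weeks from an age of 6 to 8 weeks with CDAHFD, a choline-deficient, amino acid-defined high-fat diet that brings on steatohepatitis in mice. The control group, labelled WT, held 4 littermates that carry B4galt1 flanked by recombination sites and no Cre (flox/flox). The other group held 3 mice with the same floxed alleles and a Cre recombinase driven by the albumin promoter (hep-/-), which is active in hepatocytes, so that other liver cells keep the gene. B4galt1 encodes a galactosyltransferase that adds galactose to glycans, and the study asked what its loss from hepatocytes does in diet-induced liver disease. Livers of chow-fed mice were not analysed here.

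Immediate early genes are transcribed within minutes of a stimulus without new protein synthesis, and many of their products are transcription factors that start a second wave of transcription. AP-1 is a family of dimers of JUN proteins (Jun, Junb, Jund) with FOS proteins (Fos, Fosb, Fosl1, Fosl2) or with ATF and MAF relatives, fed by the ERK, JNK and p38 kinases, by serum response factor with its ELK and MRTF partners, and by CREB. In liver these genes are known for fast, short-lived induction after partial hepatectomy, injury, ischaemia and handling of the tissue.

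Total counts were 37838654 to 39668509 in flox/flox livers and 30608271 to 34586588 in hep-/- livers, every hep-/- library being smaller. Values below are in CPM, counts relative to the library's total scaled by edgeR's TMM factors, and 3 counts correspond to 0.0689 to 0.0986 CPM. Mitochondrially encoded transcripts took 3.88 to 8.0% of the counts in flox/flox livers and 14.4 to 22.6% in hep-/- livers. The targeted gene itself measured 48.7, 53.0, 49.2 and 51.6 CPM in flox/flox replicates 1 to 4 and 28.4, 23.9 and 53.7 CPM in hep-/- replicates 1 to 3. B4galt1 was thus lower in hep-/- replicates 1 and 2, while the mouse labelled hep-/- replicate 3 sat at the flox/flox level, and the difference over all 7 mice did not pass the test (log2 fold change -0.52, adjusted p = 0.181). Without that mouse it did (-0.96, adjusted p = 0.0139), as it did with all 7 mice when limma was fitted to log2(FPKM + 1) with low-FPKM genes removed (-0.67, adjusted p = 0.0389). These are counts over the whole gene and do not resolve the deleted exons. Where leaving out hep-/- replicate 3 ended a call, turned a direction or moved a fold by over 1.5 times among the members, B4galt1 and the called genes of the pathway lists, the value without it is given. Genes count as called where the adjusted p was under 0.05 (quasi-likelihood test of edgeR, adjusted over all genes tested by Benjamini and Hochberg's method) and the log2 fold change of hep-/- over flox/flox was beyond 0.58 in either direction.

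Of the 10 immediate early and AP-1 genes, 1 was called and it was higher in hep-/- livers: Ier3, an early response gene whose product modulates cell survival. The other 9 were not called. Over all genes tested 15.8% were called, 8.0% higher and 7.83% lower, so that 1 of 10 members lies near the background. The median log2 fold change of the members was 0.23, with 8 values above 0 and 2 below, beside a median of 0.02 over all genes tested. Only Ier3 and Myc had an unadjusted p under 0.05. The range of the 3 hep-/- mice lay clear of that of the 4 flox/flox mice for Ier3 alone, against 28.6% of all genes (13.6% higher and 15.0% lower in hep-/-).

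**Figure D1:**
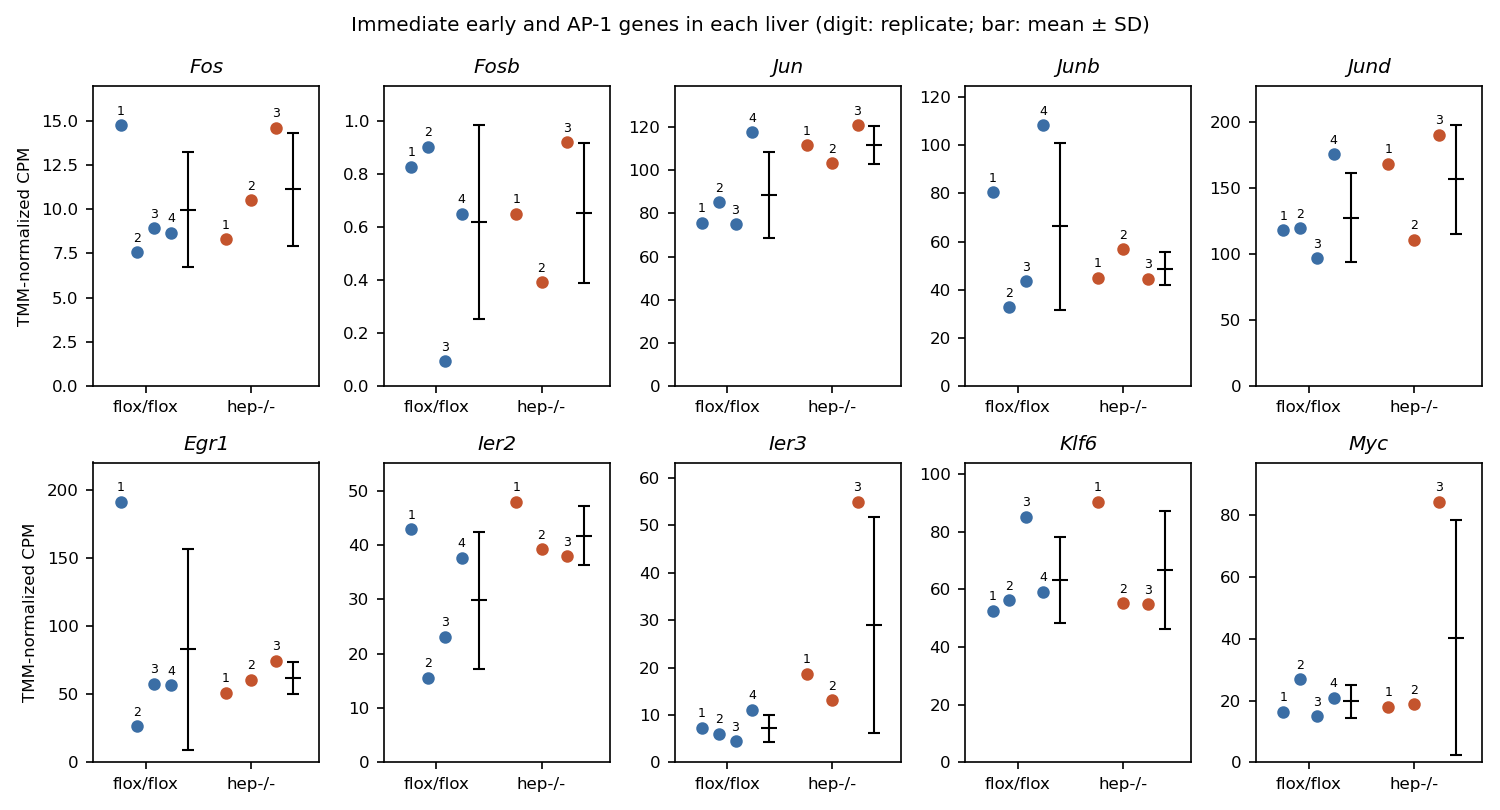
TMM-normalized CPM (y axis, linear, from 0) of the 10 genes in each liver, with flox/flox mice in blue and hep-/- mice in orange, the digit giving the replicate and the bars the mean ± SD (n = 4 and 3). The groups overlap in every panel but that of Ier3, and the highest Myc and Ier3 values belong to hep-/- replicate 3.

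The JUN proteins are the AP-1 subunits that can pair with each other as well as with FOS proteins. Jun measured 75.7, 85.3, 75.1 and 118 CPM in the flox/flox livers and 112, 103 and 121 CPM in the hep-/- livers. All 3 hep-/- mice lay above flox/flox replicates 1 to 3 but not all above replicate 4. Its log2 fold change of 0.34 (SE 0.20, adjusted p = 0.270) did not pass the test. Jund, expressed constitutively in most tissues, was at 118, 119, 96.8 and 175 CPM in flox/flox and 168, 111 and 190 CPM in hep-/- livers. Its groups overlapped, with a log2 fold change of 0.30 (SE 0.25, adjusted p = 0.437). Junb, which can act against Jun in growth control, was at 80.5, 32.8, 43.6 and 108 CPM in flox/flox livers, spanning the 44.9, 56.8 and 44.6 CPM of the hep-/- livers. The control livers therefore varied more in Junb (66.3 ± 34.7 CPM, SD, n = 4) than the hep-/- livers did (48.8 ± 6.96 CPM, SD, n = 3), and the log2 fold change was -0.44 (SE 0.35, adjusted p = 0.404).

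Jun, Junb and Jund can be compared as shares of their summed FPKM, the count scaled by gene length and by the library's total. Jund took 41.6% ± 4.68 of the JUN family in flox/flox livers and 46.3% ± 7.43 in hep-/- livers (SD, n = 4 and 3). The share of Jun was 26.4% ± 4.40 and 30.4% ± 1.28, and that of Junb was 32.0% ± 8.87 and 23.3% ± 6.15. None of the 3 shares differed beyond the spread between mice, the lowest of their p-values being 0.229 for Junb (two-sided exact permutation test, unadjusted, 7 shares compared in the JUN and FOS families).

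Fos, the founding immediate early gene, stood at 14.8, 7.58, 8.93 and 8.67 CPM in flox/flox and 8.31, 10.5 and 14.6 CPM in hep-/- livers. One mouse of each group, flox/flox replicate 1 and hep-/- replicate 3, held nearly the same top level. The log2 fold change was 0.16 (SE 0.28, adjusted p = 0.729) and turned to -0.10 without hep-/- replicate 3. Fosb was barely detected, with 4 to 36 reads in any liver, at 0.828, 0.903, 0.0937 and 0.650 CPM in flox/flox and 0.649, 0.392 and 0.921 CPM in hep-/- livers. At this depth its log2 fold change of 0.08 has a 95% interval from -1.39 to 1.54, which holds changes beyond the calling threshold in either direction. It turned to -0.28 without flox/flox replicate 3, the mouse with 4 reads, and to -0.26 without hep-/- replicate 3. Of the summed FPKM of Fos, Fosb, Fosl1 and Fosl2, Fos took 56.6% ± 11.1 in flox/flox and 53.4% ± 7.08 in hep-/- livers (SD, n = 4 and 3), and Fosl2 took 38.9% ± 11.1 and 42.3% ± 7.25. Their exact permutation p-values were both 0.771.

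Promoter sequences of 7 members were available from RefSeq (GRCm38.p6; the deposited tables were made on GRCm39): those of Fos, Fosb, Jun, Junb, Jund, Ier3 and Klf6. The 250 bases before the start of Fos, Jun and Junb are shown, with that of Jund, as those of the JUN genes and of Fos, the FOS gene with the larger mean FPKM share in both groups, on the strand of the gene. They lie at chr12:85473640-85473889 (plus strand), chr4:95052223-95052472 (minus strand), chr8:84978749-84978998 (minus strand) and chr8:70697489-70697738 (plus strand). Capitals mark TGACG (the core of a cyclic AMP response element), TGACATCA (a variant of the AP-1 and cyclic AMP response elements), CCAAT and TATAAA, searched on both strands.
Fos: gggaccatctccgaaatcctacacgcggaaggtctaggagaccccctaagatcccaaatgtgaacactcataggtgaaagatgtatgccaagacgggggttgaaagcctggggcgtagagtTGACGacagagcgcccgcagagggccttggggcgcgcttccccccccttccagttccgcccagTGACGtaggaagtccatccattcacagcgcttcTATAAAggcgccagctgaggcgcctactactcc
Jun: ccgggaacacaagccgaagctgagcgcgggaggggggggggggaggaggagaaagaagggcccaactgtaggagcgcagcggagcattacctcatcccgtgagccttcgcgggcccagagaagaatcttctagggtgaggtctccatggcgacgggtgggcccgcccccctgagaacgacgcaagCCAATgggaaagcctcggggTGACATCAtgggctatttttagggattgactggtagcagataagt
Junb: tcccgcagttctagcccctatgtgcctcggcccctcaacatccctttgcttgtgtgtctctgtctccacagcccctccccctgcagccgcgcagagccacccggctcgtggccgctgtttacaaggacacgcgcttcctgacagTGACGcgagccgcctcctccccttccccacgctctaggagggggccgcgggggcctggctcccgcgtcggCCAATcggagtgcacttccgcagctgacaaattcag
Jund: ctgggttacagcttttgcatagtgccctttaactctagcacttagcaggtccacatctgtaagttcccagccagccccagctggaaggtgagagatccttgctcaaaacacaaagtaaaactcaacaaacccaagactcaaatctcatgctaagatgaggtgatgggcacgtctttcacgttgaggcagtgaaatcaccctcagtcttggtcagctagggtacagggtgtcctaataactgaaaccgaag

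In these windows TGACG starts 129 and 66 bases before the start of Fos and 106 bases before that of Junb, and TATAAA 33 bases before that of Fos. TGACATCA starts 45 bases before the start of Jun. The Jund window held none of the motifs searched. Among 32851 RefSeq promoter windows of the same length, TGACG occurred in 17.8%, TGACATCA in 2.93%, TATAAA in 12.4% and CCAAT in 33.8%. TGACG was found in 3 of the 7 member windows (Fos, Fosb, Junb), TGACATCA in 2 (Jun, Klf6), TATAAA in 1 (Fos) and CCAAT in 4 (Jun, Junb, Ier3, Klf6). The AP-1 motif TGACTCA (4.46% of all windows), the full element TGACGTCA (1.55%, which contains TGACG) and the CArG box bound by serum response factor (1.47%) were in none of the 7, and CACGTG, the motif of MYC and its partner MAX (6.02%), was in 1 (Klf6). The motifs were chosen with the sequences in view, and a match or its lack describes these letters in this window alone.

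Egr1, a zinc finger factor induced by serum response factor, was at 191, 26.5, 57.8 and 56.6 CPM in flox/flox livers and 51.2, 60.7 and 74.6 CPM in hep-/- livers. A single control, flox/flox replicate 1, stood far above every other liver, and flox/flox replicate 2 held the lowest. The spread within groups, 0.93 as an SD on the log2 scale, exceeded that of 93.3% of all genes tested. Its log2 fold change was -0.42 (SE 0.51, adjusted p = 0.599), and without flox/flox replicate 1 it was 0.41. The direction of Egr1 thus rests on 1 control liver.

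Ier2, an early response gene of the nucleus, was at 42.9, 15.6, 23.1 and 37.6 CPM in flox/flox and 48.0, 39.2 and 38.0 CPM in hep-/- livers. Only flox/flox replicate 1 reached into the hep-/- range, and the log2 fold change of 0.48 (SE 0.30, adjusted p = 0.282) did not pass the test. Klf6, a zinc finger factor with roles in liver injury and stellate cell activation, was at 52.5, 56.2, 85.1 and 59.2 CPM in flox/flox and 90.4, 55.2 and 54.9 CPM in hep-/- livers. One mouse per group stood above the rest, and the log2 fold change was 0.08 (SE 0.24, adjusted p = 0.847). It moved to -0.21 without hep-/- replicate 1.

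Ier3 was at 7.34, 6.05, 4.47 and 11.1 CPM in flox/flox livers and at 18.7, 13.1 and 55.0 CPM in hep-/- livers. The lowest hep-/- mouse was above the highest flox/flox mouse, and hep-/- replicate 3 was far above the other two of its group. The means were 7.25 ± 2.84 CPM (SD, n = 4) and 28.9 ± 22.8 CPM (SD, n = 3), and the log2 fold change was 2.0 (SE 0.45, 95% interval 1.02 to 2.97, adjusted p = 0.0149). The two-sided exact permutation p was 0.0286, the smallest that 4 against 3 mice can give. Without hep-/- replicate 3 the log2 fold change was 1.12 with an adjusted p of 0.0523, and without flox/flox replicate 2 it was 1.91 with 0.0502, both just outside the threshold. In FPKM Ier3 was at 6.81 ± 2.27 in flox/flox and 24.3 ± 17.4 in hep-/- livers (SD, n = 4 and 3).

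The 250 bases before the start of Ier3, the one member called, lie at chr17:35821463-35821712 (GRCm38.p6, plus strand). Capitals mark the 2 matches to CCAAT, which start 244 and 175 bases before the gene.
Ier3: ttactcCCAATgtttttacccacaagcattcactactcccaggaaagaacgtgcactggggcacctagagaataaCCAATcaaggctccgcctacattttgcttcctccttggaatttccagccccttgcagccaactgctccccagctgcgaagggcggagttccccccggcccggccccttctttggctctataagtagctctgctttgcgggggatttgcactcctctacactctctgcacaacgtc

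Myc, the growth-promoting factor that binds DNA with MAX, was at 16.4, 26.9, 14.9 and 20.9 CPM in flox/flox livers and 18.1, 18.8 and 84.4 CPM in hep-/- livers. Replicates 1 and 2 of the hep-/- group lay within the flox/flox range and replicate 3 stood far above every control. The log2 fold change was 1.03 (SE 0.47, adjusted p = 0.147), and without hep-/- replicate 3 it was -0.11 (adjusted p = 0.798).

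**Figure D2:**
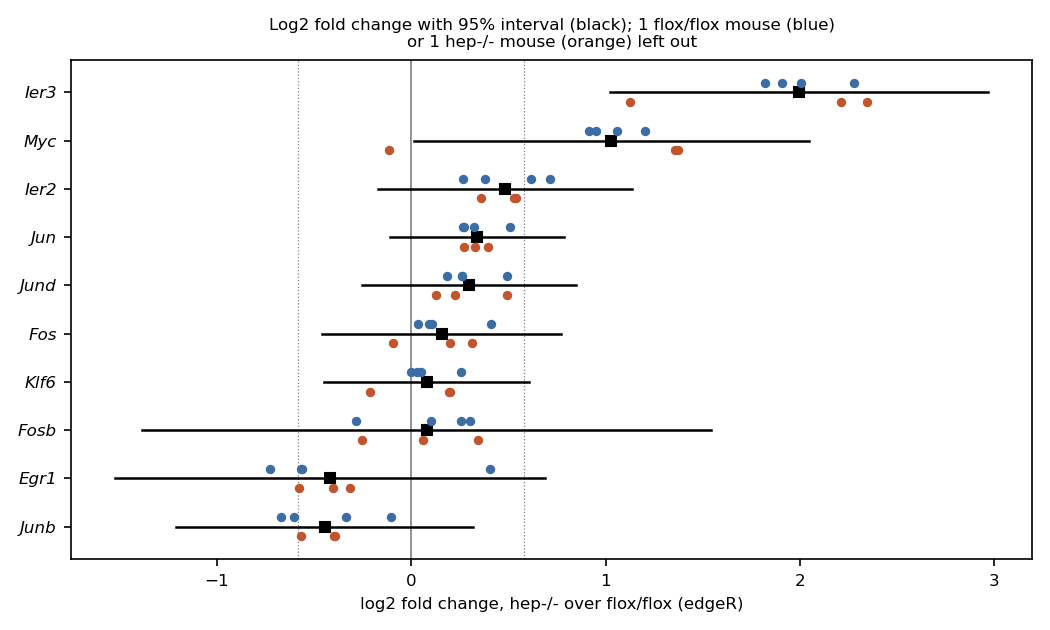
Log2 fold change of hep-/- over flox/flox for each of the 10 genes (x axis), as the edgeR estimate (black square) with its 95% interval (line), and the estimates with 1 flox/flox mouse (blue) or 1 hep-/- mouse (orange) left out. Dotted lines stand at 0.58 in either direction. The Ier3 estimates ran from 1.12 to 2.35, those of Myc from -0.11 to 1.37, and those of Egr1 from -0.73 to 0.41.

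Counted mouse by mouse, with no test, the members above the flox/flox range were as follows. In hep-/- replicate 3, 5 members (Fosb, Jun, Jund, Ier3, Myc) were above every flox/flox mouse, beside 28.0% of all genes tested. In hep-/- replicate 1 there were 3 (Ier2, Ier3, Klf6), beside 28.6% of all genes. In hep-/- replicate 2 there was 1 (Ier3), beside 35.5%. No member was below every flox/flox mouse in any of the 3, where the share of all genes was 28.8% in replicate 1, 35.4% in replicate 2 and 28.2% in replicate 3. Across all 7 livers, hep-/- replicate 3 held the highest value of 5 members (and of 11.9% of all genes tested), flox/flox replicate 1 of 2 (Fos, Egr1; 8.8% of all genes), hep-/- replicate 1 of 2 (Ier2, Klf6; 12.1%) and flox/flox replicate 4 of 1 (Junb; 12.1%). None was highest in hep-/- replicate 2, which held the highest value of 26.4% of all genes.

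Between members, levels per gene length ran over a wide range. In flox/flox livers the mean FPKM was 45.5 for Jund, 37.1 for Junb, 29.3 for Egr1, 28.5 for Jun, 20.5 for Ier2, 15.6 for Klf6, 8.48 for Myc, 6.81 for Ier3, 5.01 for Fos and 0.170 for Fosb. Neighbours in this order overlapped in their ranges over the 4 mice, apart from Klf6 (13.1 to 21.8) against Myc (6.70 to 11.3) and Fos (3.61 to 8.0) against Fosb (0.0268 to 0.250). In hep-/- livers the order was Jund (50.9), Jun (33.4), Ier2 (26.1), Junb (25.6), Ier3 (24.3), Egr1 (19.3), Myc (15.4), Klf6 (15.0), Fos (5.01) and Fosb (0.161). Neighbours in this second order overlapped over the 3 mice, apart from Jund against Jun, Jun against Ier2, Klf6 against Fos and Fos against Fosb. The places of Ier3 and Myc rest on hep-/- replicate 3, where Ier3 was at 44.4 and Myc at 30.9 FPKM, while in hep-/- replicates 1 and 2 Ier3 was at 15.5 and 13 and Myc at 6.80 and 8.47 FPKM.

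The 5 genes outside the list whose log2 CPM over the 7 livers ran most like the members' mean z-score were Sult5a1 (Pearson r 0.975), Gm30262 (0.959), Gm15337 (0.951), Npb (0.943) and Fam207a (0.940). They were chosen for that likeness over 7 mice out of all genes tested, none was called, and the highest value of each was in hep-/- replicate 3.

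None of the 14 other AP-1 subunits and dimer partners was called, beside 15.8% of all genes, and their median log2 fold change was 0.15. Their smallest p belonged to Mafg, a small MAF protein, with 83.9 ± 22.9 CPM in flox/flox and 122 ± 29.5 CPM in hep-/- livers (SD, n = 4 and 3; log2 fold change 0.54, adjusted p = 0.153). By edgeR's test none of the 14 had an unadjusted p under 0.05, and none was called under any of the 18 alternatives.

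Among other immediate early and early response genes, 9 of 45 tested were higher in hep-/- livers and none was lower, 20% beside the 8.0% of all genes that were called higher. Their median log2 fold change was 0.29, with 35 values above 0 and 10 below. Gadd45g, which responds to DNA damage and growth arrest, had the largest increase, from 22.9, 23.7, 31.7 and 45.1 CPM in flox/flox to 76.8, 91.7 and 229 CPM in hep-/- livers (log2 fold change 2.10, SE 0.37, adjusted p = 0.00627). Every hep-/- liver was above every flox/flox liver, and without hep-/- replicate 3 the log2 fold change was 1.44 (adjusted p = 0.0115). The nuclear phosphatases Dusp2 and Dusp1, which switch off MAP kinases, rose as well. Dusp2 was at 2.62 to 3.53 CPM in flox/flox mice and at 6.05 to 13.6 CPM in hep-/- mice (log2 fold change 1.57, adjusted p = 0.00940), and Dusp1 at 27.1 to 48.1 CPM and 63.2 to 95 CPM (1.02, adjusted p = 0.0184). Plk3, a stress-responsive polo-like kinase, was at 63.1 to 159 CPM and 158 to 268 CPM (0.98, adjusted p = 0.0471), its ranges meeting. The 5 further genes called, named here after their values were seen, were Cebpb (0.94), a leucine zipper factor of the acute phase response, Klf2 (0.86), Gadd45b (0.84), Ppp1r15a (0.76), which reverses the integrated stress response, and Nfkbiz (0.73). In Plk3 and Gadd45b the groups overlapped. Over the whole list the hep-/- range lay above the flox/flox range in 9 of 45 genes (20%), beside 13.6% of all genes. The count of calls ranged from 2 to 8 when 1 mouse was left out. The 8 calls without hep-/- replicate 2 were 7 higher and 1 lower (Egr2). The count was 2 without flox/flox replicate 2 (Dusp2, Gadd45g), 4 without hep-/- replicate 1, and 6 without hep-/- replicate 3, of which 5 were higher and 1 (Tob1) lower. Over all genes, calls fell from 2404 to 885 without flox/flox replicate 2, 1818 without hep-/- replicate 1 and 2157 without hep-/- replicate 3. Without that last mouse Dusp1 (0.81, adjusted p = 0.0581), Plk3 (0.75, adjusted p = 0.140), Klf2 (0.88, adjusted p = 0.0564) and Nfkbiz (0.77, adjusted p = 0.0643) were no longer called. Of the 9, only Dusp2 and Gadd45g stayed called whichever mouse was left out. With limma on log2(FPKM + 1) of all genes above 0 the count was 2 (Cebpb, Gadd45g), and with the replicate number as a block it was 6.

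**Figure D3:**
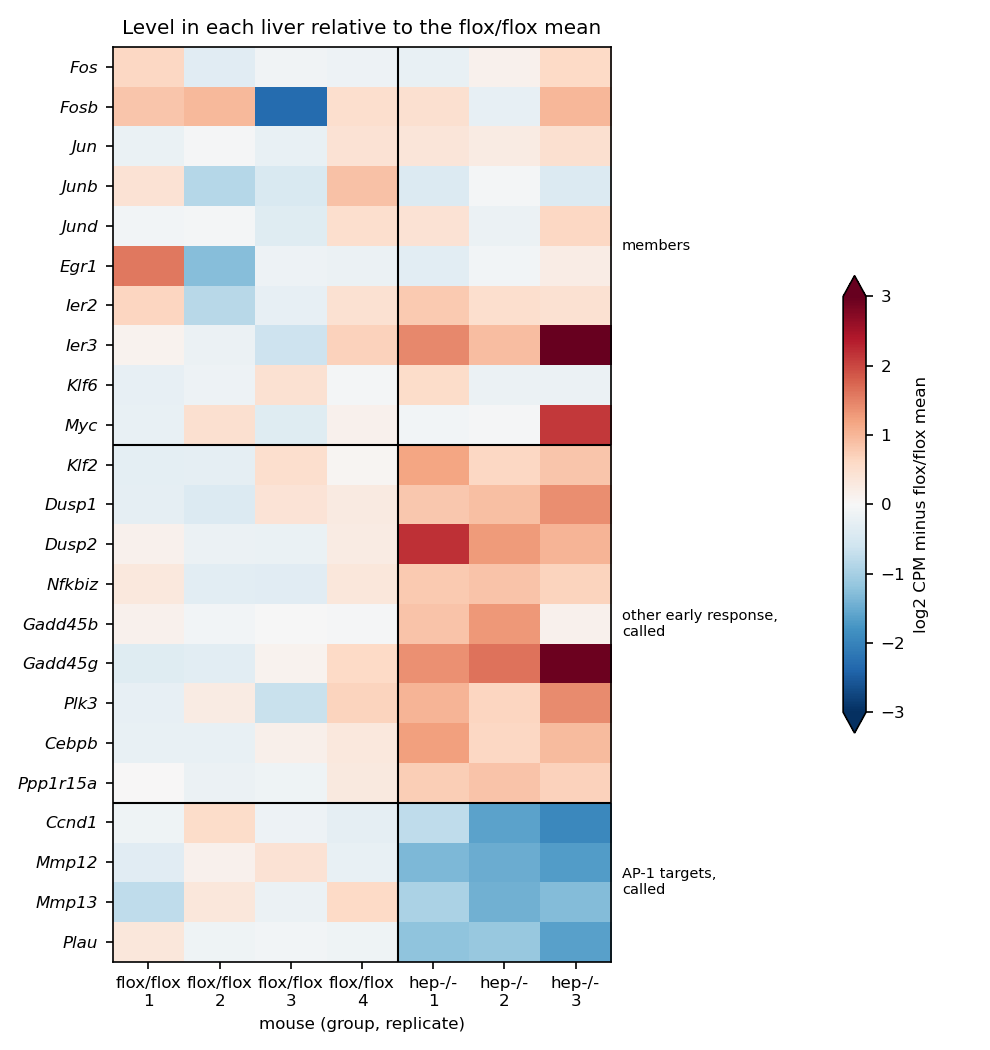
Log2 CPM in each liver minus the flox/flox mean of that gene (color, limited to 3 in either direction), for the 10 members, the 9 other early response genes called and the 4 AP-1 target genes called (rows), with the 4 flox/flox and 3 hep-/- mice as columns. All 3 hep-/- livers are clear of every flox/flox liver for Ier3 alone among the members and for 7 of the 9 early response genes, which were selected as called.

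Upstream of the immediate early genes, 3 of 29 kinases and transcription factors were called (10.3%, beside 15.8% of all genes), with a median log2 fold change of -0.08. Elk4, an ETS partner of serum response factor, fell from 11.5, 8.18, 13.4 and 5.26 CPM to 2.34, 2.08 and 5.20 CPM (log2 fold change -1.58, adjusted p = 0.0248). Only the last of these came near a flox/flox liver. Egfr, the epidermal growth factor receptor, fell from 352, 221, 156 and 298 CPM to 153, 110 and 134 CPM (-0.96, adjusted p = 0.0382). Mrtfb, an actin-regulated coactivator of serum response factor, rose, with 25.1 to 33.2 CPM in flox/flox and 42.2 to 46.4 CPM in hep-/- mice (0.67, adjusted p = 0.0251). Each of the 3 calls depended on several mice. Egfr kept its call with 1 mouse left out only when that was flox/flox replicate 3, and was at -0.97 (adjusted p = 0.0745) without hep-/- replicate 3. Elk4 lost its call without flox/flox replicate 2 or 3 or hep-/- replicate 1 or 2. Mrtfb lost it without flox/flox replicate 2 or 4 or hep-/- replicate 2 or 3 (0.63, adjusted p = 0.0554, without the last). No gene of the list was called without flox/flox replicate 2 or without hep-/- replicate 2.

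Of 17 tested genes commonly described as AP-1 targets, 4 were lower in hep-/- livers (23.5%, beside 7.83% of all genes called lower) and none was higher, and their median log2 fold change was -0.67. Il6 and Mmp3 had too few counts to test. The macrophage elastase Mmp12 fell from 375, 517, 642 and 410 CPM to 186, 169 and 150 CPM (log2 fold change -1.53, adjusted p = 0.00408). Cyclin D1 (Ccnd1), which drives entry into the cell cycle, fell from 180, 285, 175 and 163 CPM to 114, 64.0 and 51.2 CPM (-1.39, adjusted p = 0.0141). Plau, the urokinase plasminogen activator, fell, with 14.0 to 19.3 CPM in flox/flox and 4.93 to 6.91 CPM in hep-/- mice (-1.33, adjusted p = 0.00581), and so did the collagenase Mmp13, with 2.55 to 6.55 and 1.60 to 2.24 CPM (-1.31, adjusted p = 0.0367). In all 4 the groups did not overlap. Ccnd1, Mmp12 and Plau stayed called whichever mouse was left out, while Mmp13 stayed called only without flox/flox replicate 1 (-1.27, adjusted p = 0.0793, without hep-/- replicate 3). Vegfa was called higher without flox/flox replicate 1 or hep-/- replicate 1, with DESeq2, and with a filter of 1 count in any mouse. Of the 2 EGR co-repressors, Nab1 fell (-0.79, adjusted p = 0.0452), a call lost without any 1 of flox/flox replicates 2, 3 and 4 and hep-/- replicates 2 and 3 (-0.87, adjusted p = 0.0687, without the last), and Nab2 was not called (0.41, adjusted p = 0.207).

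Around Myc, 1 of 11 genes of the MAX network was called, 9.09% beside 15.8% of all genes: Mlxipl, the carbohydrate response factor ChREBP, rose from 109, 48.5, 26.6 and 74.1 CPM to 134, 189 and 187 CPM (log2 fold change 1.40, adjusted p = 0.0287). This call was lost without any 1 of flox/flox replicates 2 and 4 and hep-/- replicates 2 and 3 (1.31, adjusted p = 0.0660, without the last). Of 18 genes commonly described as MYC targets, 1 was higher and 3 were lower (22.2% called, beside 15.8% of all genes; median log2 fold change -0.22). The nucleolar protein gene Nop56 rose, with 18.3 to 32.8 CPM in flox/flox and 54.9 to 62.3 CPM in hep-/- mice (1.12, adjusted p = 0.00798). Ldha, lactate dehydrogenase A, fell, with 1149 to 1659 CPM and 321 to 791 CPM (-1.28, adjusted p = 0.0189). Odc1, which starts polyamine synthesis, was lower at 16.2 to 45.6 CPM in hep-/- against 62.9 to 85.6 CPM in flox/flox mice (-1.26, adjusted p = 0.0182). The ribosome biogenesis gene Bop1 was lower at 9.61 to 14.7 CPM against 16.8 to 21.8 CPM (-0.74, adjusted p = 0.0335). Members of this list thus moved in both directions. Nop56 and Odc1 stayed called whichever mouse was left out, Ldha lost its call without flox/flox replicate 2, and Bop1 kept its call only without flox/flox replicate 4 or hep-/- replicate 3.

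**Figure D4:**
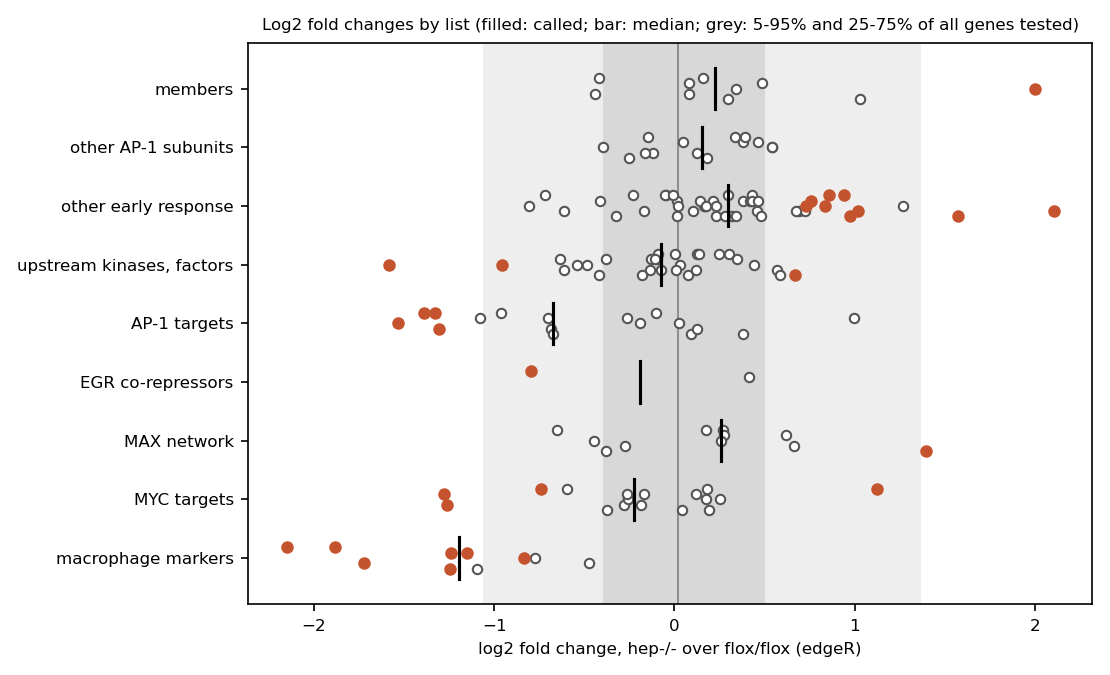
Log2 fold change of hep-/- over flox/flox (x axis) for each tested gene of 9 lists (rows), filled where called and open where not, with the median of the list as a black bar. The grey bands hold the 5 to 95% range (-1.05 to 1.36) and the 25 to 75% range (-0.39 to 0.49) of all 15179 genes tested. The median of the members is 0.23 and that of the macrophage markers is -1.19.

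Immediate early genes are transcribed in most liver cell types, so the marker genes of these types were read in the same livers. Hepatocyte markers were abundant in every liver, the summed CPM of 10 hepatocyte markers being 96519 to 137719 in flox/flox and 103002 to 166353 in hep-/- livers with none called. Macrophage markers moved with the group: 7 of 10 were called lower in hep-/- livers, beside 7.83% of all genes, and none was called higher. Their summed CPM was 1551 to 3539 in flox/flox and 725 to 817 in hep-/- livers. Over 18 alternatives the count of 7 ran from 2 to 9, and Adgre1 and Cd68 each lost their call in 1 of them. The count became 4 (Adgre1, Cd68, Gpnmb, Lyz2) without flox/flox replicate 2, flox/flox replicate 3 or hep-/- replicate 3. In whole liver, fewer macrophages and less of these transcripts per macrophage cannot be told apart. None was called among neutrophil markers (0 of 7, with summed CPM of 26.4 to 38.5 in flox/flox and 28.1 to 49.8 in hep-/- livers). The same held for stellate cell and fibroblast markers (0 of 9), cholangiocyte markers (0 of 7) and T, B and NK cell markers (0 of 9). Of 8 endothelial markers 1, Kdr, was called lower (adjusted p = 0.0441), and its values with mice left out were not read. These counts, in lists of 7 to 9 genes, stand beside 15.8% of all genes called. The part of the macrophage change, the smaller libraries or the larger mitochondrial share in the levels of Ier3, the early response genes and the AP-1 targets was not tested. Without the mitochondrially encoded genes the log2 fold change of Ier3 was 1.99 and 9 other early response genes were called.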

How the data were processed

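Liver RNA of 4 flox/flox mice (labelled WT) and 3 hep-/- mice (labelled B4galt1-HKO) was analysed, 1 library per mouse, grouped by the labels. The authors deposited raw counts per gene, whole numbers without normalization, and FPKM values of the same libraries. For 13374 genes FPKM equalled the count divided by a fixed gene length and by the library total, within 7.2e-06%. The submitters' processing notes name fastp, HISAT2, HTSeq, DESeq2, R 3.2.0 and the build GRCm39; further settings and the strand setting of counting are not given in the sources used here. No RefSeq gene overlaps any of the 10 members in GRCm38.p6. No column of sample values was left unused.

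Genes with too few counts were removed with filterByExpr (at least 10 counts in enough mice and 15 in total). The 15179 genes left were scaled by TMM, and the 2 groups were compared by the quasi-likelihood F-test of edgeR 4.0.16 (R 4.3.3) in a model of all 7 libraries that held group alone; p-values were adjusted by Benjamini and Hochberg's method. The test was first checked on simulated counts with the same spread between mice for every gene and with large changes only. That check does not cover changes near the threshold or outlying mice. CPM values carry the TMM scaling, and standard errors follow from the F statistic. For single members the mean log2 CPM was compared over the 35 ways to divide 7 mice into 4 and 3 (exact permutation test, two-sided). Intervals are at the 95% level. No 2 libraries agreed within sampling noise (chi-square per gene at least 60.3 over 21 pairs). The p-values set the difference between groups against the spread between these mice.

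The members and the gene lists were chosen with earlier results of these data known. Of the AP-1 target list 1 gene is not reported here and entered none of its counts. Named genes are all members, B4galt1, up to 4 increases and 4 decreases among called genes of each list (or the smallest p where none was called) and the 5 genes most like the members. Cebpb, Klf2, Gadd45b, Ppp1r15a, Nfkbiz, Egr2, Tob1, Nab2, Vegfa and Kdr were named after their values were seen, and Fosl1 and Fosl2 as the rest of the FOS family. Alternatives were RLE and upper-quartile scaling, DESeq2 1.42.0, 2 other filters, 3 fits of limma 3.58.1 to FPKM (pseudocount 1 or 0.1 before the log2, keeping genes that reach an FPKM of 1 in 3 mice, and pseudocount 1 on any gene above 0), voom with quality weights, a replicate block, removal of 13 mitochondrial genes, no fold threshold, and leaving out each mouse. A pseudocount on FPKM understates changes of low genes. Promoter sequences were searched with Python 3.11.15.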

Additional observations from a re-analysis of the deposited data

Results flagged for a closer look

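In 40 groups of flox/flox values (the members, B4galt1 and the called genes of the gene lists and of the macrophage markers, 4 mice each), 3 held a mouse whose gap to the nearest other mouse exceeded Dixon's 95% critical value, where chance gives about 1 in 20. Ccnd1 was at 285 CPM in flox/flox replicate 2 and at 163 to 180 CPM in the other 3. Plau was at 19.3 CPM in flox/flox replicate 1 and at 14.0 to 14.5 CPM in the other 3. Adgre1, a macrophage marker, was at 71.3 CPM in flox/flox replicate 3 and at 20.1 to 25.6 CPM in the other 3. No member was among them, and the groups of 3 hep-/- mice were not put to this test.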

How the results depend on the processing

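The count of members called was 1 (Ier3) in 15 of 19 alternatives, 2 (Ier3 and Myc) with a filter of 1 count in any mouse, 0 with limma on log2(FPKM + 1) for all genes above 0, and 0 to 1 with a mouse left out. The count of all genes called, 2404, was 1330 with limma on log2(FPKM + 1) for all genes above 0, 3261 with DESeq2 and 885 to 2396 with a mouse left out, lowest without flox/flox replicate 2. The other gene lists held 22 calls in 136 tested genes, beside 15.8% of all genes called. That count became 10 with limma on all genes above 0 and 7 to 20 with a mouse left out. The 4 AP-1 targets called became 7 with DESeq2 (6 lower, 1 higher) and 7, all lower, with limma on FPKM of at least 1. The count of members whose groups did not overlap was 1 (Ier3) with all mice, and 1 to 2 with a mouse left out. The share of calls that were higher was 50.5% with edgeR and 24.5%, 23.6% and 18.2% in the 3 limma fits on FPKM, which moved the median over all genes by -0.09, -0.13 and -0.07. Signs reversed for Fosb with limma on all genes above 0 (-0.0075), for Egr1 with voom (0.40), and for Klf6 with limma on log2(FPKM + 1) (-0.057 under both filters) and log2(FPKM + 0.1) (-0.060). With a mouse left out, log2 fold changes ran from -0.10 to 0.41 for Fos, -0.28 to 0.34 for Fosb, -0.73 to 0.41 for Egr1, -0.21 to 0.25 for Klf6 and -0.11 to 1.37 for Myc. Jun, Junb, Jund, Ier2 and Ier3 kept their direction under all 18 alternatives. Ier3 lost its call with limma on all genes above 0 (adjusted p = 0.0925). The causes were not tested. Fosb had 4 to 36 reads per liver, and what depth and the spread between mice each add to its interval was not tested.

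Replicate numbers are shared between the groups, and the labels do not state a pairing of the mice. Deviations from the group means correlated at -0.337, -0.034 and 0.0777 for replicates 1 to 3. Mice of unequal number were not compared, so these values do not decide whether mice were paired. With the replicate number as a block, 1267 genes, 1 member (Ier3) and 15 genes of the other lists were called.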
